A study of Arabidopsis thaliana with 16 samples.

Results

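Binding of WRKY proteins to chromatin was compared before and 2 h after flg22 in seedlings of Arabidopsis thaliana (accession Col-0) that carry mutations in WRKY18, WRKY40 and WRKY33. The comparison rests on 4 peak lists of the wrky18 wrky40 wrky33 triple mutant, 2 from untreated plants (0 h) and 2 from plants given 1 µM flg22 for 2 h. All plants were whole seedlings 12 days old, 2 biological replicates were taken at each time, and both times carry the same 3 mutations. Chromatin came from 2 g of pooled seedlings, so cell types within them are not separated. Per the labels, the serum used for precipitation recognises WRKY proteins in general, so a peak was read as a site of some WRKY protein and does not say which one. No group was sampled at 2 h without flg22, so the effects of flg22, of the change of medium and of time itself cannot be told apart. Another 4 lists from wild-type (WT) Col-0 at the same times were used only for comparison, and the 8 input libraries, negative controls for peak calling, were not used.

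The 4 mutant lists held 7429 peaks, which merged into 3290 regions wherever peaks shared at least 1 bp; the 8 lists of both genotypes held 14333 peaks in 3886 regions. A region was taken as gained when both 2 h lists and neither 0 h list called it, and as lost in the reverse case. By this rule 111 regions were gained and 18 were lost, 3.37% and 0.547% of the 3290 regions. A further 759 regions were called in all 4 lists, and at these the rank of the peak within its list was compared. Read depth behind single calls is unknown, so a region absent from a list was not called there, which does not show that it was unbound.

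WRKY proteins are a large family of plant transcription factors that recognise the W-box, a short DNA element common in the promoters of defence genes. Flg22 is a peptide of bacterial flagellin. Plants detect it with the receptor kinase FLS2, which sets off calcium influx, mitogen-activated protein kinase (MAPK) cascades and a fast wave of transcription. WRKY18, WRKY40 and WRKY33 belong to the family members that respond to this signal, and many WRKY genes carry W-boxes in their own promoters, so the family regulates itself. Peaks in the mutant were read as possible sites of the remaining members, which was not tested.

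The 2 h lists of the mutant were longer than its 0 h lists. They held 2049 and 2213 peaks in replicates 1 and 2 at 2 h, against 1447 and 1720 at 0 h, which is 2131 ± 116 against 1583.5 ± 193 (SD, n = 2 each). The difference was 602 peaks in replicate pair 1 and 493 in pair 2, and it was 620 and 608 in WT. The exact two-sided permutation p was 0.33, the smallest that 2 libraries against 2 can give, so none of the comparisons between times below can pass 0.05. Promoters, the class given to most peaks by the authors' annotation, made up 66.7% and 66.9% of peaks at 0 h and 63.5% and 65.0% at 2 h. The values at the times did not overlap (exact permutation p = 0.33), and WT differed by -6.07 and -5.67 percentage points within its pairs, against -3.15 and -1.88 in the mutant. The intergenic share was 14.4% and 14.0% at 0 h and 16.8% and 14.4% at 2 h, and the median distance from the transcription start site (TSS) was 426 and 340.5 bp at 0 h and 555 and 421 bp at 2 h. Both overlapped between times (exact permutation p = 0.667 each), but within replicate pairs 1 and 2 both were higher at 2 h. The intergenic share differed by 2.46 and 0.416 points and the distance by 129 and 80.5 bp. In WT these differences were 5.11 and 3.83 points and 167.5 and 195 bp. Median peak width differed more between replicates than between times, at 540 and 354 bp at 0 h and 524 and 362 bp at 2 h (exact permutation p = 1).

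**Figure D1:**
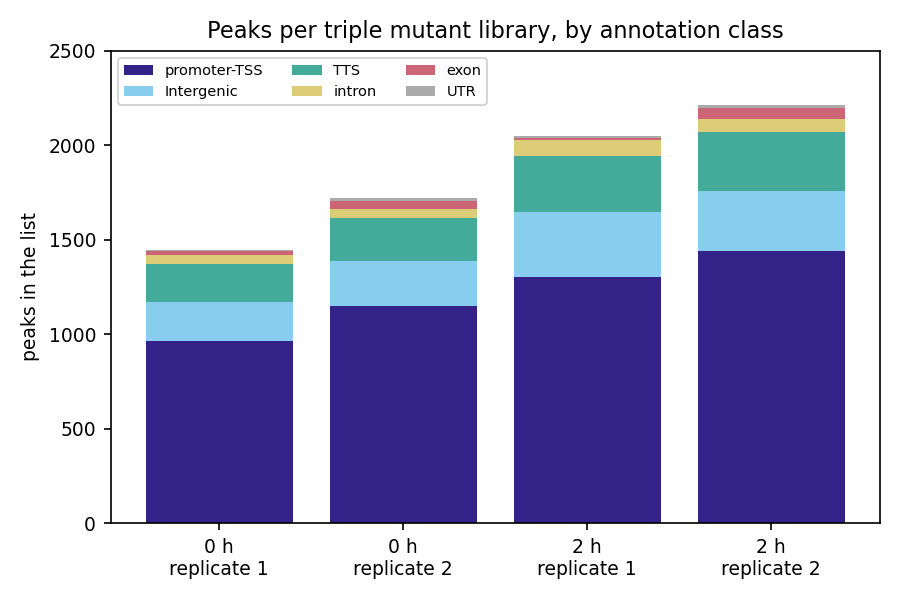
Number of peaks (vertical axis) in each of the 4 triple mutant lists, stacked by annotation class (promoter, intergenic, transcription termination site or TTS, intron, exon, UTR). Both 2 h lists, with 2049 and 2213 peaks, are longer than both 0 h lists, with 1447 and 1720, and promoter is the largest class in each.

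Lists of the same replicate number resembled each other more than lists of the same time. The 0 h and 2 h lists shared 54.1% of their joint regions in replicate 1 and 62.2% in replicate 2, while the 0 h lists shared 42.9% and the 2 h lists 37.2%. Lists that differed in both time and replicate were about as alike as lists of the same time. For 0 h replicate 1 and 2 h replicate 2 the share was 40.4%, and for 0 h replicate 2 and 2 h replicate 1 it was 34.0%. There were 564 regions called only at 2 h in replicate 1 and 417 only at 2 h in replicate 2, against the 111 called in both. Within replicate pair 1, 819 regions were called at 2 h alone and 216 at 0 h alone, and within pair 2 the numbers were 692 and 214. The count of gained over lost regions also depends on the length of the lists. With only the top 1447 peaks of each list, 31 regions were gained and 64 were lost, so the balance turned. Of the 111 gained regions 26 remained under that restriction, and of the 18 lost regions 11 did.

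The gained regions were mostly sites of low rank, and they were annotated as promoter about as often as the other regions. Of the 111 regions, which were assigned to 110 genes, 71 were annotated as promoter (64.0%, against 64.1% of all 3290), 23 as intergenic (20.7% against 15.4%), 13 as TTS (11.7% against 14.0%), 3 as exon and 1 as intron. The maximum lay within 1000 bp upstream of the TSS at 67 of them (60.4% against 59.4%), further upstream at 28 and downstream at 16, with a median position of -472 bp against -233 bp over all regions (negative values are upstream). The authors' peak score was read only as a percentile within its own list, where 100 is the top peak, and the median over the gained regions was 34.0 in 2 h replicate 1 and 31.1 in 2 h replicate 2, against 49.9 and 50.6 over all regions called in those lists, with a mean over both lists between 4.06 and 74.8. All lists end at a score of about 10, and 32 of the gained regions (28.8%) in replicate 1 and 40 (36.0%) in replicate 2 had a score under 11, against 17.6% and 21.3% of all regions called in those lists.

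The highest gained regions, at AT5G60710 and AT1G49000, combined a strong peak in replicate 1 with a middling one in replicate 2. AT5G60710, which encodes a C3H4-type zinc finger protein, had percentiles of 97.2 and 52.4 in 2 h replicates 1 and 2, at a TTS region on chromosome 5 at 24416636 to 24418272 (TAIR10), -2386 bp from the TSS. AT1G49000, of unknown function, had 98.7 and 45.8 at its promoter, chromosome 1, 18124732 to 18125165. Both sites were called in 3 or 4 of the WT lists, including WT at 0 h. C4H (AT2G30490), the cinnamate 4-hydroxylase at the entry of phenylpropanoid synthesis, stood at 67.9 and 65.7, and its region on chromosome 2 at 12997041 to 12997559 lay -1530 bp from the TSS. In WT this region was called in 2 h replicate 1 alone, at 91.8. Close behind were 2 genes of unknown function, AT3G13432 with 64.7 and 65.7 and AT3G10930 with 70.1 and 60.2, and both of their regions were called in both WT 2 h lists and in neither WT 0 h list.

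Signalling genes among the 20 highest gained regions included a calcium-dependent kinase, a secreted peptide and ubiquitin ligases. CPK30 (AT1G74740), a calcium-dependent protein kinase, had percentiles of 52.5 and 76.5 at its promoter (chromosome 1, 28082799 to 28083709), -354 bp from the TSS, and was called in all 4 WT lists. RALFL21 (AT3G04735), a member of the RALF family of secreted peptides that act on cell wall sensing receptor kinases, had 47.9 and 68.3 at -199 bp, and 56.0 and 82.6 in the WT 2 h lists with no call in WT at 0 h. The U-box ubiquitin ligases PUB24 and PUB26 also belonged here. PUB24 (AT3G11840), which with PUB22 and PUB23 dampens pattern-triggered immunity, had 74.5 and 38.0 at -253 bp and was called only at 2 h in WT too, at 74.4 and 77.7. PUB26 (AT1G49780), a ligase that marks the receptor-associated kinase BIK1 for degradation, had 63.6 and 45.8 at -1217 bp and was called in 3 WT lists, 1 of them at 0 h. AT1G10900, a phosphatidylinositol-4-phosphate 5-kinase by its description, had 64.2 and 53.3, and the protein phosphatase gene PPX2 had 49.1 and 62.3.

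The remaining genes among those 20 have varied functions, from membrane lipids to seed storage. PSD2, a phosphatidylserine decarboxylase of membrane lipid synthesis, had percentiles of 55.4 and 72.1 at 2 h. NAP1;3, a histone chaperone, had 71.9 and 56.6, and the peroxidase gene AT5G64100 had 64.2 and 50.6. ABCB27, an ABC transporter, had 77.0 and 44.2. Seed and secreted proteins were represented by OLEO4, an oil body oleosin, with 70.5 and 50.6, and by AT2G24693, a defensin-like protein, with 71.2 and 49.8. OLEO4 was the only one of these 20 with no call in any WT list. Cyclin CYCA2;3 with 90.8 and 28.1 and the F-box gene AT1G14330 with 92.3 and 25.3 were high in replicate 1 and low in replicate 2, and neither remained gained with equal numbers of peaks. The last of the 20, AT2G27389, had 66.7 and 42.3 and no known function. Counted over the regions by description, defensin-like genes held 4 of the gained regions out of 20 regions in all (20.0%, against 3.37% of all regions), at AT2G24693, TI2, LCR9 and AT1G13607. This family was picked out after its values were seen, from 9 families counted. Among the others, zinc finger genes had 7.55% gained, U-box or RING ubiquitin ligases 7.14%, cytochrome P450 genes 6.25% and transporters 4.9%. Protein kinases had 3.49%, hypothetical genes 2.66%, disease resistance genes 2.33% and F-box genes 2.22%. These shares follow the wording of the descriptions and are approximate. The protein kinases include the phosphatidylinositol-4-phosphate 5-kinase gene AT1G10900, and the cytochrome P450 genes leave out CYP79B2 and C4H. Defensin-like genes also held 1 lost region, at LCR5. In 2 h replicates 1 and 2, TI2 had percentiles of 4.44 and 35.4, LCR9 5.73 and 8.77 and AT1G13607 18.03 and 3.68.

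**Figure D2:**
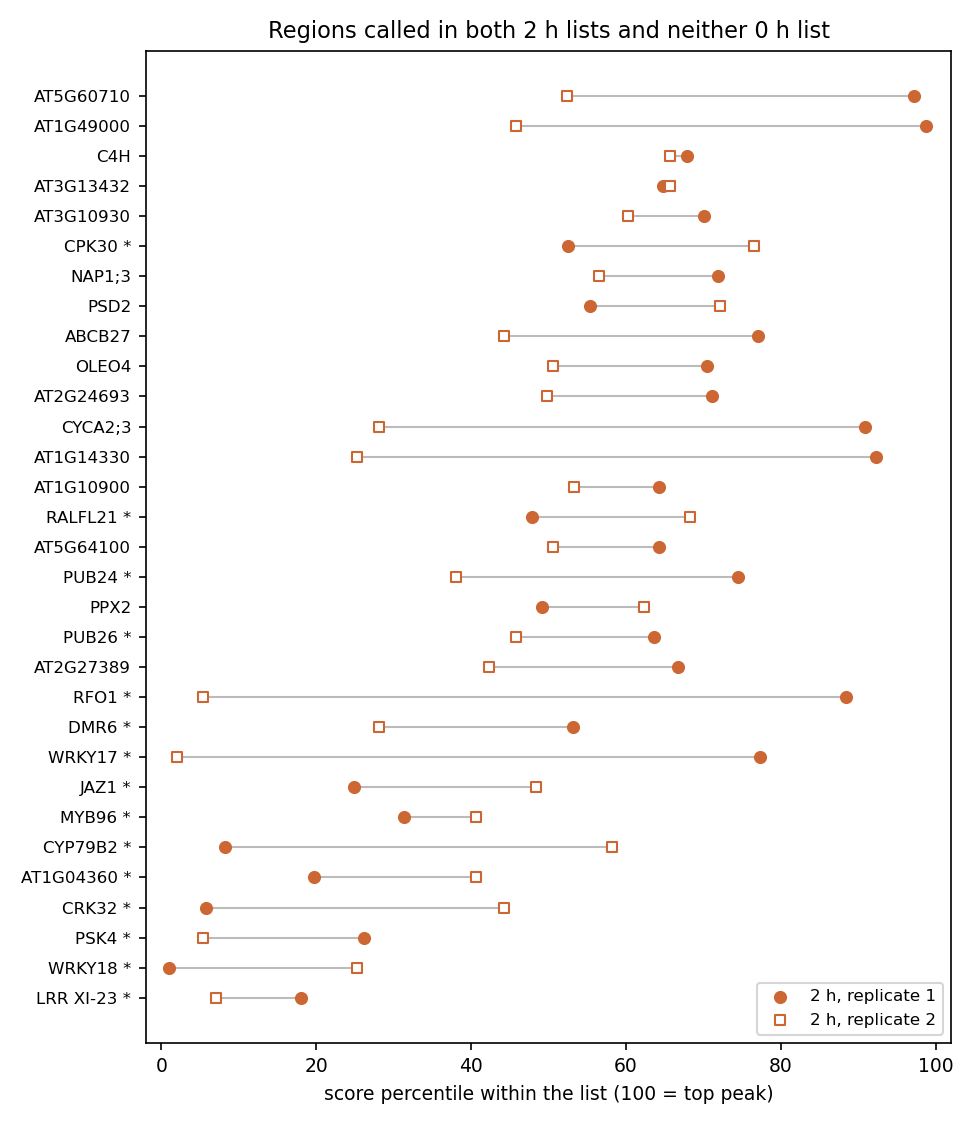
Score percentile within the list (horizontal axis, 100 for the top peak) in 2 h replicate 1 (filled circles) and 2 h replicate 2 (open squares) for the 20 gained regions with the highest mean, followed by the other gained regions of listed immune genes; an asterisk marks listed genes. Few pairs of points lie close together, and WRKY17 and RFO1 have one high and one very low value.

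Genes of immune signalling were counted over 17 lists of 581 genes in all, 2 of them control lists. Together they had 246 regions in the mutant, of which 15 were gained (6.10% against the 3.37% of all regions) and 2 were lost (0.813% against 0.547%). Ubiquitin ligases held 3 gained regions of 22, danger and signalling peptides 2 of 11, cysteine-rich and wall-associated kinases 2 of 23 and WRKY genes 2 of 38. Pattern receptors (1 of 21), calcium signalling (1 of 21), camalexin and indole glucosinolates (1 of 24), salicylic acid and EDS1 (1 of 10), jasmonate (1 of 9) and stress transcription factors (1 of 17) held a single one each. No region was gained at the listed genes of the ethylene pathway (22 regions), the MAP kinase cascade (8), VQ-motif proteins (4), NADPH oxidases (3) or intracellular immune receptors (10). The lists do not hold every gene of these kinds, and some genes outside them had a gained region. Named after their values were seen, these included the VQ motif gene AT1G78410, with percentiles of 34.0 and 57.3 at 2 h. MEKK3 had 17.1 and 32.1, the ethylene-responsive factor gene AT5G61890 29.2 and 49.2, and the TIR-NBS-LRR gene AT5G36930 83.3 and 0.678. Of the control lists, photosynthesis had 1 region for 41 genes and housekeeping 2 for 14 genes, and none of these was gained or lost. With 3.37% of all regions gained, so few regions would rarely hold one, so the control lists cannot serve as a check.

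Of the mutated WRKY genes, WRKY18 carried a gained region at its own locus. This region, on chromosome 4 at 15381901 to 15382624, had percentiles of 1.02 and 25.3 in the 2 h lists, among the weakest of the gained set. In replicate 1 the peak was annotated as promoter at -807 bp, and in replicate 2 as intergenic at -1087 bp. WT called the site in replicate 2 at both times, at 13.0 and 38.4. WRKY17 (AT2G24570), a relative known for limiting basal resistance, had 4 regions in the mutant. Its gained one, on chromosome 2 at 10439293 to 10440016 and -392 bp from the TSS, stood at 77.4 in replicate 1 and at 2.08 in replicate 2, and WT called it only at 2 h, at 84.8 and 23.6. A neighbouring WRKY17 region at -1214 bp was called in all 4 mutant lists, at 48.7 and 47.8 at 0 h and 53.1 and 66.4 at 2 h. An intron region of the gene was also called at 0 h, so the gene had calls at both times.

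The other mutated genes, WRKY40 and WRKY33, and the flg22 marker gene FRK1 had no gained or lost region. The WRKY40 promoter region, on chromosome 1 at 30381228 to 30384173, had percentiles of 53.1 and 98.5 at 0 h and 98.8 and 99.1 at 2 h, near the top of every list but 0 h replicate 1. Its limits are those of 1 broad peak in 2 h replicate 1, and the peaks of the other mutant lists were narrower. Its WT values were 71.2 and 95.7 at 0 h and 44.5 and 95.5 at 2 h. A second, intergenic WRKY40 region further upstream had 93.6 and 99.94 at 0 h and 99.95 in 2 h replicate 2. It was not called in 2 h replicate 1. WRKY33 carried a mutant peak only in replicate 2, in an intron, at 58.5 at 0 h and 42.3 at 2 h. No mutant list called a peak in the WRKY33 promoter, where all 4 WT lists had one, at percentiles between 82.9 and 94.2. FRK1, a receptor-like kinase gene induced by flg22, was likewise called only in replicate 2 of the mutant, at 45.7 at 0 h and 68.3 at 2 h, -98 and -106 bp from the TSS. Over the 71 listed WRKY genes, 27 had a region in the mutant, and the number with a call was 13 and 17 at 0 h and 18 and 21 at 2 h. The number of all genes with a call was also higher at 2 h, at 1920 and 2069, against 1395 and 1644 at 0 h. The WRKY count was therefore not read as a change particular to these genes.

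Among receptors and secreted peptides, the gained regions of listed genes were mostly weak. RFO1, a wall-associated kinase that gives resistance to Fusarium oxysporum, had percentiles of 88.4 and 5.35, and all 4 WT lists called its site. CRK32, a cysteine-rich receptor-like kinase, had 5.73 and 44.2. LRR XI-23 (AT1G09970), a leucine-rich repeat receptor kinase also known as RLK7, had 18.03 and 7.07 at -2928 bp. PSK4, a precursor of the growth peptide phytosulfokine, had 26.2 and 5.35 at -1108 bp and carried another region that was called at 0 h. Except for RFO1, the sites of these genes were called in both WT 2 h lists and in neither WT 0 h list.

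Hormone and metabolic genes came next. DMR6, an oxygenase that breaks down salicylic acid and is required for susceptibility to downy mildew, had percentiles of 53.1 and 28.1 at -1010 bp. JAZ1, a repressor of jasmonate signalling, had 24.9 and 48.4 at -728 bp. CYP79B2, which converts tryptophan to the precursor of camalexin and indole glucosinolates, had 8.22 and 58.2 at -974 bp and was called in no WT list. MYB96, a regulator of abscisic acid responses and cuticular wax, had 31.3 and 40.7 at -37 bp, and a second MYB96 region at 2769 bp downstream of the TSS was called in all 4 mutant lists. WT called the gained MYB96 site in both 0 h lists, at 29.4 and 22.5. At 2 h WT called it in replicate 1 alone, at 45.2. The RING-type ligase gene AT1G04360 had 19.8 and 40.7 at -1820 bp. Of the 15 gained regions at listed genes, those of PUB24, PUB26, CPK30, RALFL21 and MYB96 remained with equal numbers of peaks. Over the whole gained set, 22 regions belonged to genes with another region in the mutant, and at 12 of these the other region was called at 0 h.

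WT, which the choice of regions did not use, called the same sites mostly at 2 h. Of the 111 gained regions, 21 and 22 overlapped a peak in the WT 0 h lists and 82 and 84 in the WT 2 h lists, which is 19.4% ± 0.637 against 74.8% ± 1.27 (SD, n = 2 each). The difference of 55.4 percentage points had an exact permutation p of 0.33 and, within same-numbered pairs, of 0.5, the smallest possible in both designs. The other 3179 mutant regions were called at 40.5% and 43.3% in WT at 0 h and at 50.8% and 52.0% at 2 h, a difference of 9.44 points. The change at gained regions exceeded that at the others by 44.7 points in WT pair 1 and by 47.2 points in pair 2. Those others include the 759 regions called in all 4 mutant lists, which were called at 87.9% in WT at 0 h and 87.8% at 2 h. The 274 regions called in both mutant 2 h lists and 1 of 2 0 h lists are a nearer comparison. In WT they were called at 52.6% at 0 h and 78.1% at 2 h, a difference of 25.5 points. With equal numbers of peaks in the mutant lists, the 31 gained regions were called at 29.0% and 38.7% in WT at 0 h and at 83.9% in both WT 2 h lists. The list of WT 0 h replicate 1 lacks 136 of its region numbers, so calls in it can be too few, and replicate 2, with no gaps, showed the same difference.

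By region, 45 of the 111 also met the gain rule in WT, where 215 of the 3290 mutant regions met it. Both WT 2 h lists called 67 of them and neither WT 0 h list called 75. Regions called in a single mutant 2 h list were also called more often in WT at 2 h than at 0 h, but mostly in the WT list of the same replicate number. Those called only in 2 h replicate 1 were called at 12.8% and 2.30% in WT 0 h replicates 1 and 2, and at 58.2% and 17.4% at 2 h. Those called only in 2 h replicate 2 were called at 4.08% and 13.9% in WT at 0 h, and at 13.2% and 37.9% at 2 h. Gained regions were called in both WT replicates about equally, at 73.9% and 75.7%. They were chosen for a call in both mutant 2 h lists, and the other sets for a call in 1. Lists of the same number resemble each other, so this contrast cannot be separated from that choice. There were 9 gained regions with no WT call, among them OLEO4, CYP79B2 and LCR9.

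**Figure D3:**
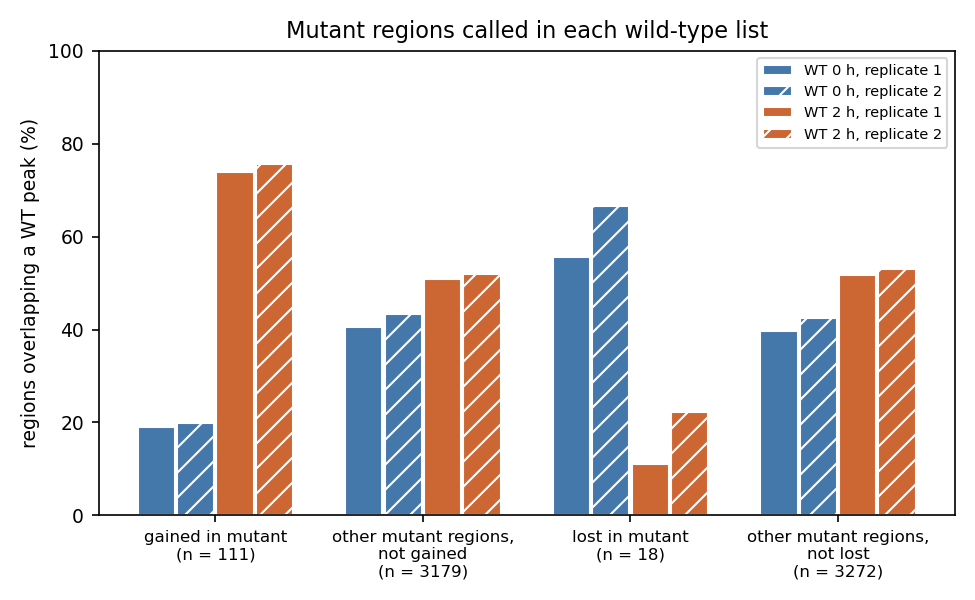
Share of mutant regions that overlap a peak in each of the 4 WT lists (vertical axis, %), for regions gained and lost in the mutant and for all other mutant regions, with n under each set. Bars are single lists, 0 h in blue and 2 h in orange, with replicate 2 hatched; the gained regions go from 18.9% and 19.8% at 0 h to 73.9% and 75.7% at 2 h, and the lost regions go the other way.

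Lost regions were few and, with 1 exception, weak. Of the 18, 13 were annotated as promoter, 3 as TTS and 2 as intergenic, and their median mean percentile at 0 h was 18.5. A score under 11 was found at 12 of them in 0 h replicate 1 and at 9 in 0 h replicate 2. The exception was AT1G18382, annotated as a non-coding RNA gene, with percentiles of 95.1 and 93.2 at 0 h at its promoter (chromosome 1, 6326687 to 6327392), -361 bp from its TSS. WT called this region at 94.4 and 97.2 at 0 h and in neither 2 h list, so the loss was seen in both pairs of both genotypes.

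No other lost region was above the middle of both 0 h lists. GRP2B, a cold shock domain protein, had percentiles of 17.1 and 74.5, and its site was called in replicate 2 of WT at both times. SOS4, a pyridoxal kinase, and AT5G59990, a CCT motif gene, each had 50.2 and 16.0. Further genes among the 10 highest were AT5G01734, of unknown function, with 18.6 and 48.7, the arabinogalactan protein gene AGP4 with 7.12 and 53.4, AT2G46620 with 13.9 and 31.5, TTA1, which encodes an OBERON protein, with 2.14 and 36.5, and the disease resistance gene AT1G58410 with 3.70 and 31.5. The AGP4 site was assigned to 2 genes, AGP4 and its neighbour AT5G10440.

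Intracellular immune receptors of the NLR type were the only list with lost regions, 2 of its 10, against 0.547% of all regions. These were ZAR1, whose protein assembles into the resistosome, with percentiles of 2.14 and 1.86 at 0 h, and AT5G66910, a CC-NBS-LRR gene, with 5.32 and 1.86. All of these are at the bottom of their lists. The number of listed NLR genes with a call was 5 and 8 at 0 h and 1 and 8 at 2 h, so the low value came from 2 h replicate 1 alone. In WT, 10 and 12 of the 18 lost regions were called at 0 h and 2 and 4 at 2 h (a difference of -44.4 percentage points, exact permutation p = 0.33), and 5 of the 18 met the loss rule there, where 63 of all mutant regions did. The 3272 other regions differed by 11.3 points in the opposite direction.

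At the 759 regions called in every mutant list, both 2 h percentiles lay above both 0 h percentiles at 134 regions (17.7%) and below both at 59 (7.77%). A percentile depends on the length of its list, and the 2 h lists are longer. When places were taken among the 759 shared regions alone, 93 (12.3%) ranked higher and 85 (11.2%) lower, with 92 and 59 regions the same as before. The median shift from 0 h to 2 h was 0.656 points in replicate pair 1 and 3.36 in pair 2. The shifts of the pairs had the same sign at 446 of the 759 regions (58.8%), and across these regions, which share their lists and are not independent, Pearson's r was 0.246 and Spearman's rho 0.268. Regions ranked higher were promoter at 63.4% and those ranked lower at 71.2%, against 65.1% of all 759.

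**Figure D4:**
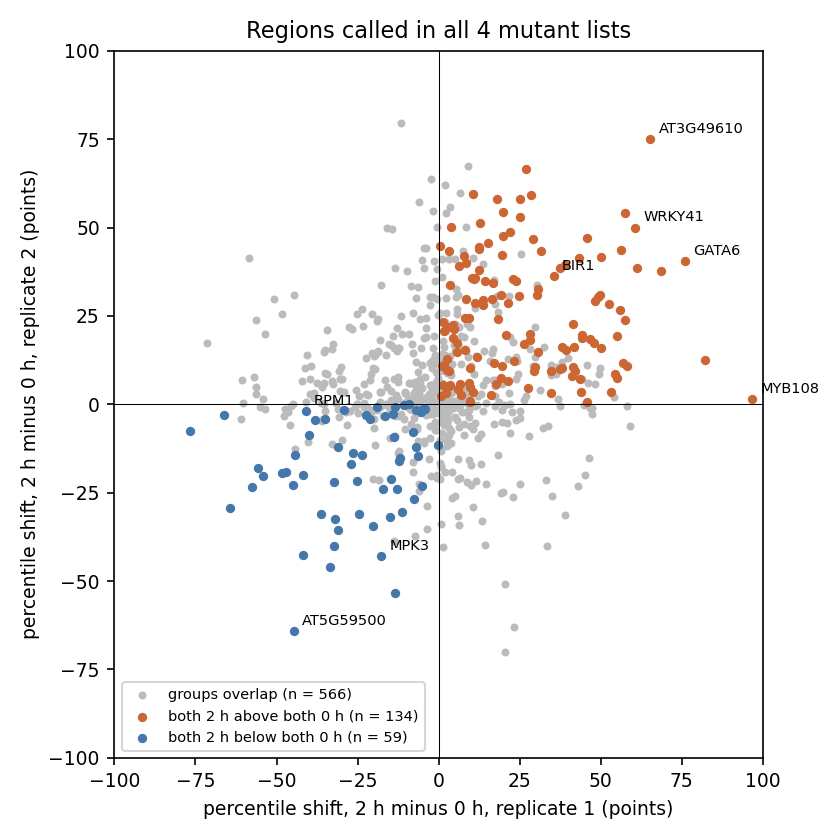
Shift in score percentile from 0 h to 2 h in replicate pair 1 (horizontal axis, points) and pair 2 (vertical axis, points) at the 759 regions called in all 4 mutant lists. Orange points are the 134 regions with both 2 h values above both 0 h values and blue points the 59 with both below; several genes named in the text are labelled, and most grey points lie along one axis or near 0.

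The largest mean upward shifts in rank were at AT3G49610, GATA6, MIF1 and WRKY41. AT3G49610, of unknown function, stood at 32.2 and 3.92 at 0 h and 97.6 and 79.0 at 2 h, a mean shift of 70.2 points, at its promoter (chromosome 3, 18391718 to 18392619). GATA6, a GATA-type transcription factor, went from 15.7 and 1.86 to 91.5 and 42.3, and MIF1, a mini zinc finger protein, from 12.2 and 9.59 to 69.7 and 63.6. At all of these the values of the times were far apart in both replicates.

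WRKY41 (AT4G11070), a defence-related WRKY factor, was the highest listed gene. Its promoter region, on chromosome 4 at 6758671 to 6759208 and -364 bp from the TSS, had 31.2 and 26.0 at 0 h and 91.8 and 76.0 at 2 h. In WT the same region had 54.7 and 35.1 at 0 h and 83.5 and 94.6 at 2 h. Of the 11 WRKY gene regions called in all 4 mutant lists, 5 ranked higher (45.5%, against 17.7% of all 759) and none ranked lower (against 7.77%). The other 4 were the WRKY40 promoter region and the WRKY17 region called in all 4 lists, both given above, and those of WRKY60 and WRKY53. The last of these, WRKY60 and WRKY53, are named after their values were seen. WRKY60, a close relative of WRKY18 and WRKY40, had 62.3 and 44.4 at 0 h and 76.5 and 79.3 at 2 h. WRKY53, a regulator of leaf senescence and defence, moved from 95.5 and 92.8 to 98.5 and 98.1 and was near the top at both times. The median mean shift over the 11 WRKY regions was 4.14 points, against 1.85 over all 759, and all 5 also ranked higher by places among the shared regions.

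Receptor kinases and stress regulators were also among the regions that ranked higher. RPK1, a receptor kinase of abscisic acid signalling, had 8.40 and 35.2 at 0 h and 64.7 and 78.7 at 2 h, and the lectin-type kinase gene AT4G28350 had 34.8 and 5.87 and then 61.8 and 72.5. BIR1, a receptor kinase that restrains immune signalling through BAK1, had 49.4 and 48.7 at 0 h and 84.8 and 84.9 at 2 h, with replicates that lay close together at each time. The other listed pattern receptors that ranked higher, named after their values were seen, were PEPR1, the receptor of Pep danger peptides, with 17.1 and 56.3 and then 61.0 and 59.7, and AT4G08850, a leucine-rich repeat protein, with 83.4 and 85.2 and then 93.0 and 85.8. Neither of these ranked higher by places among the shared regions alone. Of the 9 regions of listed pattern receptors, 3 ranked higher (33.3%, against 17.7% of all 759) and none lower (against 7.77%); of these 3, BIR1 alone ranked higher by places among the shared regions.

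For some genes the shift came from 1 replicate. MYB108, a MYB factor of the response to Botrytis, stood at 2.14 in 0 h replicate 1 but at 97.9 in 0 h replicate 2, and at 98.9 and 99.3 at 2 h, so pair 2 differed by 1.42 points. NADK1, which makes NADP, had 5.32 and 78.4 and then 87.5 and 90.9. The mean shift of the WRKY40 promoter region, 23.1 points, was likewise made of 45.6 in pair 1 and 0.608 in pair 2. The last of the 10 largest upward shifts were at AT1G12380, of unknown function, with 7.12 and 23.8 and then 75.8 and 61.5, and at the exostosin gene AT3G57630, with 15.7 and 3.92 and then 77.0 and 42.3.

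**Figure D5:**
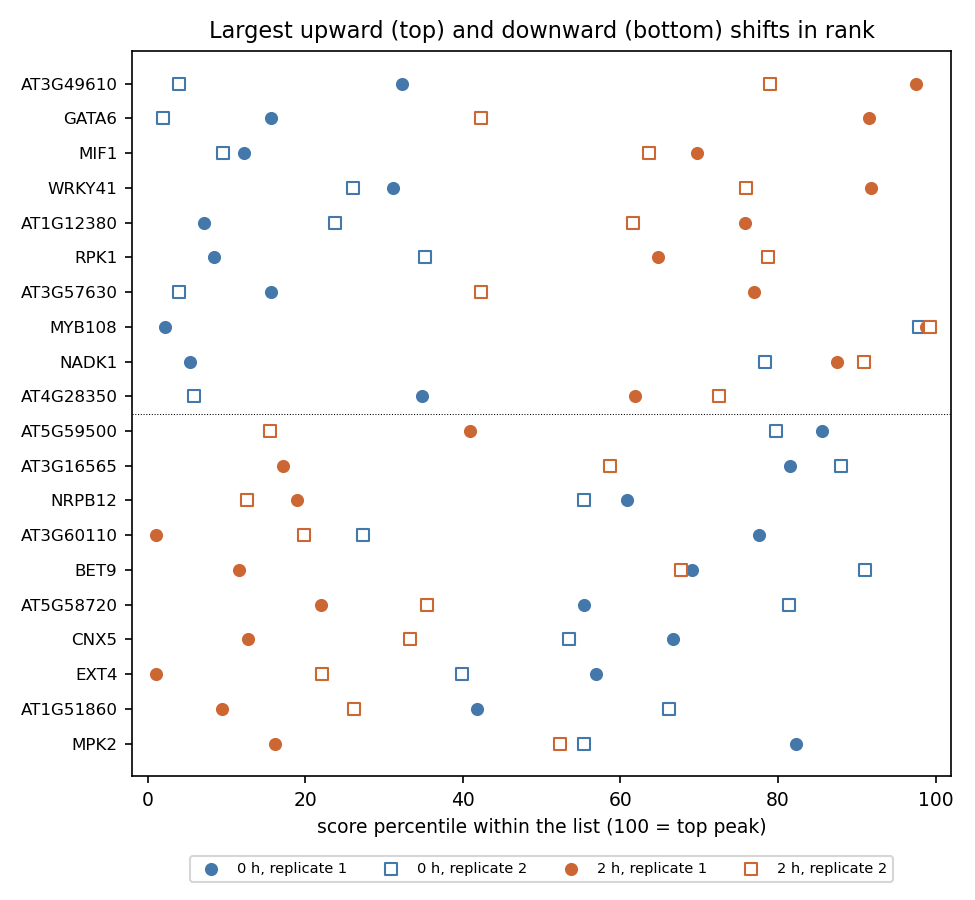
Score percentile within each of the 4 mutant lists (horizontal axis, 100 for the top peak) at the 10 regions with the largest mean upward shift and, under the dotted line, the 10 with the largest mean downward shift in rank among regions whose times do not overlap. Blue is 0 h and orange 2 h, filled circles are replicate 1 and open squares replicate 2; MYB108 differs between times in replicate 1 only, while BET9 and MPK2 have 0 h and 2 h values that almost touch.

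The largest downward shifts in rank included genes of transcription, protein modification and cofactor synthesis. AT5G59500, an isoprenylcysteine methyltransferase gene, had 85.6 and 79.7 at 0 h and 40.9 and 15.5 at 2 h, a mean shift of -54.5 points, at its promoter (chromosome 5, 23984972 to 23985928). AT3G16565, a putative nucleotide binding protein, went from 81.5 and 87.9 to 17.1 and 58.7. NRPB12, a subunit of RNA polymerase II, went from 60.8 and 55.3 to 18.9 and 12.6, with the times well apart in both replicates. Genes with bromodomains, which read acetylated histones, appeared in AT3G60110, with 77.6 and 27.3 and then 1.02 and 19.8, and in BET9, with 69.1 and 91.0 and then 11.6 and 67.7. CNX5, of molybdenum cofactor synthesis, had 66.7 and 53.4 and then 12.7 and 33.3, and AT5G58720, an Smr domain gene, had 55.4 and 81.5 and then 22.0 and 35.4. The rest were EXT4, a cell wall extensin, with 56.9 and 39.9 and then 1.02 and 22.1, the receptor-like kinase gene AT1G51860 with 41.7 and 66.1 and then 9.42 and 26.1, and MPK2, a MAP kinase, with 82.3 and 55.3 and then 16.2 and 52.4.

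Listed genes, the control lists included, made up 5 of the 59 regions that ranked lower and 12 of the 134 that ranked higher, out of 73 listed regions called in all 4 lists (6.85% and 16.4%, close to the 7.77% and 17.7% of all). MPK3 (AT3G45640), one of the MAP kinases that flg22 activates, had percentiles of 30.4 and 67.3 at 0 h and 12.7 and 24.3 at 2 h at a promoter region -109 bp from the TSS. In WT the MPK3 region was called in both 0 h lists, at 52.7 and 41.3, and in neither 2 h list. RPM1, an NLR that recognises effects of Pseudomonas effectors, had 48.0 and 49.4 and then 6.95 and 47.4, and WT called it at 0 h only, at 50.4 and 62.8. The remaining 3, named after their values were seen, were PSK3, with 77.9 and 79.7 and then 66.2 and 64.5, CBP60G, a regulator of salicylic acid synthesis, with 90.7 and 91.2 and then 83.7 and 79.0, and PUB23, with 79.7 and 67.9 and then 66.2 and 67.0. PUB22, the close partner of PUB23 and also named after its values were seen, ranked higher in the mutant, with 48.7 and 24.9 and then 65.2 and 54.7, but not by places among the shared regions alone, while PUB23 ranked lower by both.

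Of the regions that ranked higher or lower, most of those called in all 4 WT lists shifted in WT in the same direction as in the mutant. All 4 WT lists called 100 of the 134 regions that ranked higher, and 71 of these moved up in both WT pairs and 10 moved down in both, with a median shift of 17.2 points. They called 29 of the 59 that ranked lower, of which 23 moved down in both WT pairs and 1 moved up in both, with a median of -21.4 points. Over all 495 regions called in all 8 lists, 192 (38.8%) moved up in both WT pairs and 166 (33.5%) moved down, with a median of 0.999 points. Pearson's r between the mean shifts of the genotypes was 0.576 across these 495 regions. It was 0.446 within the 100 that ranked higher and 0.0285 within the 29 that ranked lower. Both sets were chosen by the mutant's shift, which narrows its range, so their r cannot be set against the 0.576. Ranks of both WT times did not overlap, in the mutant's direction, at 50 of the 100 and at 19 of the 29, against 100 and 98 of the 495. They did not overlap in the opposite direction at 6 of the 100 and at 1 of the 29.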

How the data were processed

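Each library's peak list was deposited as a table by the authors, with 1 row per peak: start, end, position of the maximum, scores, annotation class, distance to the TSS and gene of the nearest promoter at any distance. The build is TAIR10 and the tools listed are Bowtie2 2.0.5, cutadapt 1.2.1, HOMER, FastQC 0.11.2 and SAMtools 0.1.18, per the submitters' processing notes. The peak calling program and its thresholds were not given in the sources used here. Precipitated DNA was amplified linearly before library construction, per the labels' protocols, which can change the balance between fragments. The authors' deposited ChIP score and ef score have no stated scale and were used only within a list; the annotation class and distance are other deposited values, taken as given.

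Peaks were merged with Python 3.11.15 and pandas 2.3.3, tested on simulated lists. Per-library values were compared with exact two-sided permutation tests, 2 against 2. Gene names came from the RefSeq table of TAIR10.1, which held 3056 of the 3089 assigned genes. Regions named are the 20 gained and 10 lost with the highest mean percentile, all gained or lost ones of listed genes, the 10 largest rank shifts each way with listed genes among the 30 largest, and WRKY18, WRKY40, WRKY33 and FRK1. One region that this rule names is not reported here. Members, lists and rules were chosen with earlier results of these data known. Per the series' design text, each of the 2 biological replicates covered all 4 conditions, and libraries were therefore paired by number; lists of the same number shared the most regions. Alternatives were other score thresholds, equal numbers of peaks, peaks cut to 150 bp, an overlap of 100 bp, pairing, and leaving out each library. Sequences are not used here.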

Additional observations from a re-analysis of the deposited data

Results flagged for a closer look

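CPC (AT2G46410), which encodes a small MYB protein that promotes root hair fate, met the gain rule in the mutant and the loss rule in WT at the same region, -291 bp from its TSS. In the mutant its mean 2 h percentile was 4.23, from 3.10 and 5.35 in the 2 lists, near the floor of both. The opposite calls of the genotypes flagged it, and no test was made of that contrast. It was the only 1 of the 111 gained and 18 lost regions with opposite calls in WT, and the gene had 2 other regions that were called at 0 h in the mutant.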

How the results depend on the processing

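The counts of gained and lost regions depended on how peaks and libraries were selected. Peaks above each list's median score gave 57 gained regions, and equal numbers of peaks gave 31 gained and 64 lost. The replicate block, which takes the mean within same-numbered pairs, gave 755.5 gained and 215 lost, and leaving out 1 library gave 240 to 675 gained and 66 to 151 lost, because a call is then asked of fewer libraries. For ranks, the replicate block gave 286 regions higher and 160 lower, with places among shared regions alone 227 and 236 (chosen after seeing the data), and leaving out 1 library gave 266 to 337 higher and 151 to 248 lower. The median width difference of -4 bp turned to 16.5 bp with equal numbers and ranged from -97 to 89 bp without 1 library (77 bp without 2 h replicate 2). The intergenic difference of 1.44 points was 0.851 at ef scores of 5 or more and 0.206 to 2.67 without 1 library, lowest without 2 h replicate 1 and highest without 2 h replicate 2. The TSS distance difference of 104.75 bp was 37.75 without 2 h replicate 1, 62 without 0 h replicate 2 and 171.75 without 2 h replicate 2. The other alternatives run kept each count and difference within 1.5 times and in its direction; gained regions were 94 with peaks cut to 150 bp and 128 at ef scores of 5 or more. Depth per call is unknown, and sites near the score floor limit both sets.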
